A study of Homo sapiens with 18 samples.

Results

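The genes described here are ATF4 and 8 genes of the amino acid response that it governs, namely ASNS, TRIB3, CHAC1, DDIT3, DDIT4, SESN2, PSAT1 and PHGDH. They were chosen by name, and each was found once among the 20802 genes of the panel through its RefSeq identifier. Of the 9 genes, 8 had more than 100 counts over all libraries and were among the 10212 tested genes, and DDIT3 had too few counts for a test.

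When amino acids run short or the endoplasmic reticulum is under stress, kinases such as GCN2 and PERK phosphorylate the translation factor eIF2alpha. General translation then falls while translation of ATF4 mRNA rises, so that much of ATF4 control is not visible in its mRNA level. ATF4 binds as a dimer with C/EBP proteins to composite sites in its target genes, which encode amino acid enzymes, transporters, tRNA synthetases and regulators of mTORC1, the kinase complex that senses nutrients at the lysosome.

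RKO is an established human colorectal carcinoma line. Cells were transfected with 30 nM of 1 siRNA and harvested 72 h later. The nontargeting siRNAs were siCtrl#1 and siCtrl#2, and the on-target siRNAs were siTsg101#1, siTsg101#2, siVps28#1 and siVps28#2, directed against Tsg101 and Vps28, subunits of the membrane sorting complex ESCRT-I. Each of the 6 groups had 3 libraries, 1 from each of 3 experiments that the labels number as batches, which gave 18 libraries with no untransfected group. Depletion was transient and by siRNA in a single cell line, and all groups, controls included, received a transfection reagent.

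The sequences below are shown because ATF4 acts through a short composite site, and they show where its letters occur in front of these genes. RefSeq promoters (GRCh38.p14) from 250 bases before to 50 bases after the transcription start were read, with 14 promoter entries for the 9 genes. The letters TGATGNAA, searched on both strands, were in 3.62% of all 35116 promoters and in 1.91% of 12113 promoters of tested genes. They occurred for ASNS at chr7:97872458-97872487 on the minus strand, 68 bases before the start, and for CHAC1 at chr15:40953251-40953280 on the plus strand, 209 bases before the start and read on the opposite strand. Capitals mark the match in each window of 30 bases, written 5′ to 3′ along the gene.
ASNS: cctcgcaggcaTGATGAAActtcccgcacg
CHAC1: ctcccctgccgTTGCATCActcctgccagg

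The 250 bases before the start of SESN2 (chr1:28259268-28259517) and PHGDH (chr1:119711684-119711933), both on the plus strand of GRCh38.p14, are shown because these genes carry the main differences below. Neither window held TGATGNAA. Capitals mark the GC box letters GGGCGG, present in the first 250 bases of 42.6% of all promoters, and the letters TGATG, the first part of TGATGNAA, present in 28.8%, on either strand. SESN2 held 2 GC boxes, starting 127 and 57 bases before the start site and the latter on the opposite strand, and PHGDH held 1 TGATG match, 241 bases before the start and on the opposite strand.
SESN2: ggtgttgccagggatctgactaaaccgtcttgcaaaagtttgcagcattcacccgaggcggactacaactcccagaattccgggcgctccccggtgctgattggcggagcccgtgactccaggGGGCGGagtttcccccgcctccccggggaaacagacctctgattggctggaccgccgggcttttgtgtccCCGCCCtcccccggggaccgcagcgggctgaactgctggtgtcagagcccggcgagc
PHGDH: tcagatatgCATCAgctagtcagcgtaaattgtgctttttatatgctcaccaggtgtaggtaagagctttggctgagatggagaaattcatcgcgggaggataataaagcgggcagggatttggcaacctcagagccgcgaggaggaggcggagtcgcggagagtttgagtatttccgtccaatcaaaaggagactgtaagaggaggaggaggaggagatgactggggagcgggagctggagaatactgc

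Library depth on genes ran from 2561790 to 7466916 counts (median 5022216.5). TSG101 mRNA was lower by a log2 fold change of -4.84 with siTsg101#1 and -5.10 with siTsg101#2 against siCtrl#1, and VPS28 mRNA by -4.15 with siVps28#1 and -4.07 with siVps28#2. Among epithelial and intestinal markers, KRT18 was at 46.7 to 82.1 CPM (counts scaled to a common library total) and CDX2 at 21 to 36.9 CPM, whereas CDH1 had 0 counts in every library and KRT19, VIL1 and LGALS4 had at most 2. The leukocyte marker PTPRC and the fibroblast marker DCN had 0 counts, PECAM1 had at most 2 and COL1A1 at most 11. Fewer cells and less RNA per cell cannot be told apart in such bulk libraries.

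Library siCtrl#1 replicate 1 stood apart for several of the genes described here. It held the lowest level of all 18 libraries for ATF4, TRIB3, CHAC1, SESN2 and PSAT1, and siCtrl#1 replicate 3 held the highest level for CHAC1 and DDIT4. The highest and lowest siCtrl#1 libraries differed 8.84-fold for CHAC1, 4.36-fold for DDIT4, 4.33-fold for TRIB3 and 3.89-fold for SESN2. In siCtrl#2 the same ratios were 2.94, 3.32, 1.70 and 1.33. The averaged comparisons are therefore given against each nontargeting siRNA. Where a gene's value or call in them is given, libraries whose omission changed that call are stated with its values.

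Levels are given as normalized CPM, that is CPM after TMM scaling, and differences as log2 fold changes. The panel reads 1 amplicon per gene, so levels are not compared between genes. Gene positions are on GRCh37, the build of the panel reference (hg19). A call required a change of at least 1.5-fold and an adjusted p below 0.05 (edgeR quasi-likelihood test, Benjamini-Hochberg over all tested genes). The adjusted p-values in all paragraphs below come from that test. Errors of log2 fold changes are standard errors, and intervals cover 95%. The on-target libraries are the same in the comparisons with siCtrl#1 and with siCtrl#2, and the single siRNAs share their control libraries.

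Of the 8 tested genes, 2 were called when the 4 on-target siRNAs were averaged and set against siCtrl#1, SESN2 up and PHGDH down. Of all tested genes, 8.56% were called up and 6.54% down in this comparison. Against siCtrl#2, SESN2 was again called up, where 6.13% of all genes were, and PSAT1 and PHGDH were called down, where 4.37% were. The median log2 fold change of the 8 genes was 0.19 against siCtrl#1 and -0.047 against siCtrl#2, beside medians over all genes of -0.0035 and -0.0088. The genes thus did not move in 1 direction, and ATF4, ASNS, CHAC1 and DDIT4 were called in neither comparison.

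**Figure D1:**
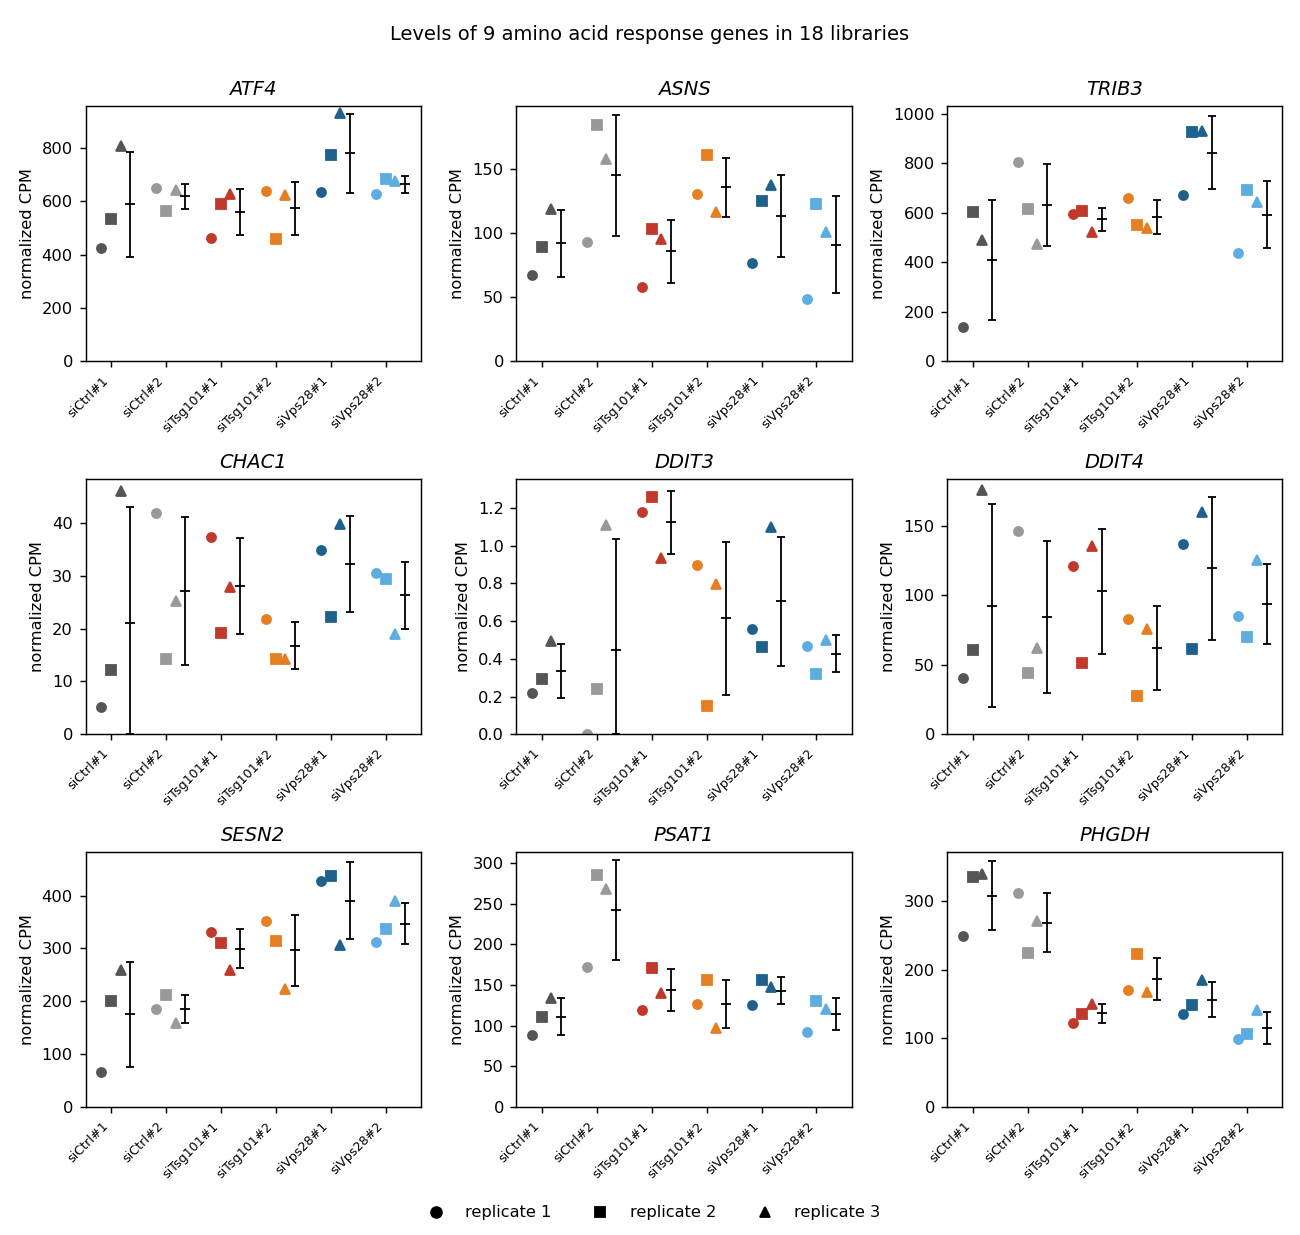
Normalized CPM of the 9 genes (y axes, linear from 0) in the 6 siRNA groups (x axes), with 1 point per library, point shapes for replicates 1 to 3, and bars for the mean ± SD of 3 libraries, cut at 0. PHGDH was lower in all 12 on-target libraries than in all 6 nontargeting libraries, and PSAT1 was highest in siCtrl#2.

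ATF4 mRNA (chr22:39915700-39918688, plus strand), which encodes the transcription factor itself, was called in neither averaged comparison. Its levels in replicates 1 to 3 were 424, 535 and 808 with siCtrl#1 and 650, 565 and 641 with siCtrl#2. With the on-target siRNAs they ran from 458 to 931, with a median of 631, and overlapped both control groups. Only 1 of 12 on-target libraries, siVps28#1 replicate 3, lay above every nontargeting library. Averaged over the 4 on-target siRNAs, ATF4 had a log2 fold change of 0.12 ± 0.16 against siCtrl#1 (interval -0.21 to 0.44, adjusted p = 0.648) and 0.046 ± 0.16 against siCtrl#2 (interval -0.28 to 0.37, adjusted p = 0.887). The value against siCtrl#1 depended on single control libraries, being -0.077 (adjusted p = 0.813) without siCtrl#1 replicate 1 and 0.41 (adjusted p = 0.0961) without siCtrl#1 replicate 3. These values say nothing of the protein. The largest single difference from a nontargeting siRNA was 0.41 ± 0.20, with siVps28#1 against siCtrl#1 (adjusted p = 0.229), and it was called only without siCtrl#1 replicate 3 (0.70, adjusted p = 0.0323).

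DDIT3 (chr12:57910371-57915520, minus strand) encodes CHOP, a stress-induced partner of ATF4. It was barely detected, with 56 counts over all 18 libraries and 0 to 7 in any one. Of these, 12 counts fell in the 6 nontargeting libraries and 44 in the 12 on-target libraries. Fitted without the filter on low counts, its log2 fold change was 0.89 ± 0.75 against siCtrl#1 (adjusted p = 0.504) and 0.41 ± 0.70 against siCtrl#2 (adjusted p = 0.857), so that a difference was not detectable at this depth. Exons of DDIT3 overlap other genes, over 105 bases on the same strand and 413 bases on the other, and the strand setting of the counting is not given in the sources used here.

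TRIB3 (chr20:343479-378203, plus strand), a pseudokinase that is induced by ATF4 and CHOP and restrains both ATF4 and AKT, was called against neither nontargeting siRNA when the on-target siRNAs were averaged. Its levels were 139, 602 and 488 with siCtrl#1 and 806, 616 and 473 with siCtrl#2. The on-target libraries ran from 439 to 931, with a median of 625, and 7 of 12 lay above all siCtrl#1 libraries but 2 of 12 above all siCtrl#2 libraries. These 2 were siVps28#1 replicates 2 and 3, at 924 and 931. Averaged over the 4 on-target siRNAs, the log2 fold change was 0.64 ± 0.26 against siCtrl#1 (adjusted p = 0.0743) and 0.017 ± 0.25 against siCtrl#2 (interval -0.49 to 0.53, adjusted p = 0.975). With the replicate number as a block the first of these was called, at 0.70 (adjusted p = 0.0420), and it was also called without siCtrl#1 replicate 2 (1.02, adjusted p = 0.0210). Without siCtrl#1 replicate 1 it was 0.23 (adjusted p = 0.460).

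Only siVps28#1 gave a call for TRIB3 by itself, at a log2 fold change of 1.04 ± 0.31 or 2.06-fold against siCtrl#1 (adjusted p = 0.0375). The level with siVps28#1 was 843 ± 147 (SD, n = 3), against 410 ± 241 with siCtrl#1 and 631 ± 167 with siCtrl#2. Without siCtrl#1 replicate 1 this difference was 0.63 (adjusted p = 0.110). It was also not called without siCtrl#1 replicate 3 (adjusted p = 0.0503), siVps28#1 replicate 2 (0.107) or siVps28#1 replicate 3 (0.118). Against siCtrl#2 it was 0.42 ± 0.31 (adjusted p = 0.561).

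CHAC1 (chr15:41245160-41248710, plus strand) encodes a gamma-glutamylcyclotransferase that breaks down glutathione, and its promoter holds the composite letters shown above. Its levels were 5.22, 12.1 and 46.1 with siCtrl#1 and 41.9, 14.3 and 25.1 with siCtrl#2. All 12 on-target libraries, at 14.2 to 39.8, fell inside the range of the siCtrl#1 libraries. The log2 fold change was 0.19 ± 0.37 against siCtrl#1 (interval -0.58 to 0.96, adjusted p = 0.756) and -0.11 ± 0.36 against siCtrl#2 (interval -0.86 to 0.64, adjusted p = 0.881). Without siCtrl#1 replicate 3 the first was called, at 1.57 (adjusted p = 0.00662), and siTsg101#1 (1.72), siVps28#1 (1.94) and siVps28#2 (1.64) were then called singly. Against siCtrl#1, 1 library thus set whether CHAC1 was called, and that fit rested on siCtrl#1 levels of 5.22 and 12.1. The averaged comparison with siCtrl#2 was not called whichever library was left out (lowest adjusted p = 0.561).

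SESN2 (chr1:28586029-28609002, plus strand) encodes sestrin 2, a leucine-binding protein that holds back mTORC1 when leucine is scarce. It rose with the on-target siRNAs against both nontargeting siRNAs. Its levels were 66.5, 200.6 and 259 with siCtrl#1 and 186, 211 and 159 with siCtrl#2. Tsg101 depletion gave 331, 309 and 259 (siTsg101#1) and 352, 314 and 223 (siTsg101#2). Vps28 depletion gave 428, 438 and 306 (siVps28#1) and 313, 337 and 390 (siVps28#2). All 12 on-target libraries lay above every siCtrl#2 library and 10 of 12 above every siCtrl#1 library, the exceptions being replicate 3 of siTsg101#1 and of siTsg101#2.

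SESN2 differed, over the 4 on-target siRNAs as 1 average, by a log2 fold change of 0.92 ± 0.24 against siCtrl#1, or 1.89-fold (interval 1.33- to 2.67-fold, adjusted p = 0.00804). Against siCtrl#2 it was 0.84 ± 0.24, or 1.79-fold (interval 1.26- to 2.52-fold, adjusted p = 0.0195). Within batches 1, 2 and 3 the difference from siCtrl#1 was 2.41, 0.79 and 0.15, and the difference from siCtrl#2 was 0.92, 0.71 and 0.86. The call against siCtrl#1 was lost without siCtrl#1 replicate 1 (0.52, adjusted p = 0.0549), and the call against siCtrl#2 without its replicate 1 (0.84, adjusted p = 0.0603) or its replicate 3 (0.74, adjusted p = 0.104). The direction was upward in each of these fits.

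By single siRNA, SESN2 was called with both siVps28 siRNAs against both controls and with neither siTsg101 siRNA when all libraries were used. Against siCtrl#1 the log2 fold changes were 1.15 ± 0.29 with siVps28#1 (adjusted p = 0.0135) and 0.98 ± 0.29 with siVps28#2 (adjusted p = 0.0228). They were 0.77 ± 0.29 with siTsg101#1 (adjusted p = 0.0529) and 0.76 ± 0.29 with siTsg101#2 (adjusted p = 0.0660). With the replicate block siTsg101#1 was called (0.78, adjusted p = 0.0468), and without siCtrl#1 replicate 3 both siTsg101 siRNAs were (1.17 and 1.15). siTsg101#1 was also called without siVps28#2 replicate 3 (0.77, adjusted p = 0.0499), and siTsg101#2 without its own replicate 3 (0.92, adjusted p = 0.0465). Set against siCtrl#2, SESN2 was at 0.69 ± 0.29 with siTsg101#1 (adjusted p = 0.101) and 0.68 ± 0.29 with siTsg101#2 (adjusted p = 0.111), and both were called without siCtrl#1 replicate 1 (0.69, adjusted p = 0.0123, and 0.67, adjusted p = 0.0163). The Tsg101 and Vps28 depletions were not shown to differ, since both siTsg101 minus both siVps28 was -0.30 ± 0.20 (interval -0.72 to 0.12, adjusted p = 0.377). Against siCtrl#2, siVps28#1 gave 1.07 ± 0.29 (adjusted p = 0.0330) and siVps28#2 gave 0.90 ± 0.29 (adjusted p = 0.0478), a call that was lost in 14 of the 18 fits that each left out 1 library, with adjusted p up to 0.157. It was kept without siCtrl#1 replicate 1 or 3, siTsg101#2 replicate 3 or siVps28#1 replicate 3. The siVps28#1 call was lost in 5 of these 18 fits, those without siCtrl#2 replicate 1, 2 or 3 or siVps28#1 replicate 1 or 2, with adjusted p up to 0.120. Against siCtrl#1, siVps28#1 was not called without its replicate 1 or 2 (both adjusted p = 0.0507), and siVps28#2 not without siCtrl#1 replicate 1 (0.0786) or siVps28#2 replicate 3 (0.0694).

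DDIT4 (chr10:74033678-74035794, plus strand) encodes REDD1, which holds back mTORC1 through the TSC complex. Its levels were 40.4, 61.1 and 176 with siCtrl#1 and 147, 44.2 and 62.0 with siCtrl#2. The on-target libraries ran from 27.2 to 160 and overlapped both. The log2 fold change was -0.022 ± 0.38 against siCtrl#1 (interval -0.81 to 0.77, adjusted p = 0.974) and 0.13 ± 0.39 against siCtrl#2 (interval -0.67 to 0.94, adjusted p = 0.867). These intervals reach past 1.5-fold on both sides, so that a change of that size was not detectable for this gene. Without siCtrl#1 replicate 3 the first value was 0.86 (adjusted p = 0.182), and without siCtrl#2 replicate 1 the second was 0.79 (adjusted p = 0.275), neither of them called.

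**Figure D2:**
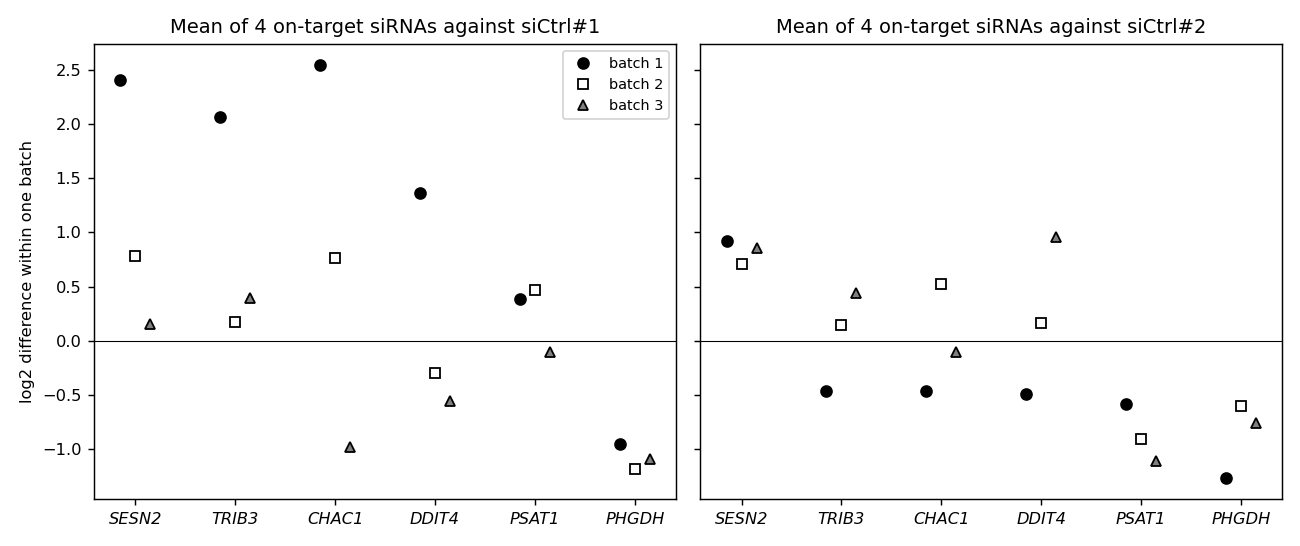
Log2 difference between the mean of the 4 on-target libraries and the nontargeting library of the same batch (y axis) for 6 of the genes (x axis), with 1 point per batch, against siCtrl#1 on the left and siCtrl#2 on the right. PHGDH was below 0 and SESN2 above 0 in all 3 batches against both controls, and TRIB3, CHAC1 and DDIT4 against siCtrl#1 were highest in batch 1.

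Within batch 1 the 4 on-target libraries lay above siCtrl#1 by 2.07 for TRIB3, 2.55 for CHAC1 and 1.37 for DDIT4, as mean differences of log2 levels. In batch 3 the same differences were 0.39, -0.98 and -0.56. Against siCtrl#2, batch 1 gave -0.47, -0.46 and -0.49, and batch 3 gave 0.44, -0.11 and 0.95. The sign of these differences thus changed with the batch for CHAC1 and DDIT4 against either control and for TRIB3 against siCtrl#2.

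ASNS (chr7:97480989-97501854, minus strand) encodes asparagine synthetase, which makes asparagine from aspartate, and its promoter holds the other match to the composite letters. Its levels were 67.4, 89.7 and 119 with siCtrl#1 and 93.1, 185 and 158 with siCtrl#2. The on-target libraries ran from 48.9 to 161, with a median of 110, and none lay above all siCtrl#2 libraries. The log2 fold change was 0.19 ± 0.24 against siCtrl#1 (interval -0.30 to 0.68, adjusted p = 0.619) and -0.47 ± 0.23 against siCtrl#2 (interval -0.94 to -0.0015, adjusted p = 0.166). Both controls themselves differed by 0.66 ± 0.30 (siCtrl#2 minus siCtrl#1, adjusted p = 0.300).

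Adding the replicate block changed more calls for ASNS than for the other genes. The level of ASNS was lowest in replicate 1 of every group but siTsg101#2. With the block it was called up with siTsg101#2 against siCtrl#1 (0.61, adjusted p = 0.0208), and down against siCtrl#2 with siTsg101#1 (-0.75, adjusted p = 0.00606) and siVps28#2 (-0.70, adjusted p = 0.0139). Between on-target siRNAs it was called higher with siTsg101#2 than with siTsg101#1 (0.73, adjusted p = 0.0147), and lower with siVps28#2 than with siTsg101#2 (-0.68, adjusted p = 0.0196). Without the block these adjusted p-values were 0.187, 0.0827, 0.163, 0.191 and 0.254. Exons of ASNS share 2415 bases with a same-strand gene model, so that reads of both cannot be told apart there.

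PSAT1 (chr9:80912041-80945009, plus strand) encodes the aminotransferase of the second step of serine synthesis. It was higher with siCtrl#2 than in every other group. Its levels were 88.1, 111 and 134 with siCtrl#1 and 172, 286 and 269 with siCtrl#2. With the on-target siRNAs they ran from 92.6 to 171, with a median of 128. All 12 on-target libraries lay below every siCtrl#2 library, none lay below every siCtrl#1 library, and 5 lay above all of the latter.

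PSAT1 differed, over the 4 on-target siRNAs as 1 average, by a log2 fold change of -0.88 ± 0.16 against siCtrl#2, or 1.84-fold lower (adjusted p = 3.33e-04). Within batches it was -0.58, -0.90 and -1.11. Against siCtrl#1 it was 0.24 ± 0.17 (interval -0.11 to 0.59, adjusted p = 0.318). The nontargeting siRNAs differed by 1.13 ± 0.21, or 2.18-fold higher with siCtrl#2 (adjusted p = 0.00374), and by 0.97, 1.37 and 1.01 within batches. PSAT1 was the only member of the 8 tested genes called between the controls, where 2.09% of all genes were called. Its fall against siCtrl#2 was not seen against siCtrl#1, and with no untransfected group it was not tested which of the nontargeting siRNAs is closer to untreated cells.

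Each on-target siRNA called PSAT1 down against siCtrl#2 by itself. It was lower by log2 fold changes of -0.75 ± 0.21 (siTsg101#1), -0.94 ± 0.21 (siTsg101#2), -0.76 ± 0.21 (siVps28#1) and -1.08 ± 0.21 (siVps28#2). The siTsg101#1 call was lost without its replicate 1 (adjusted p = 0.0738) or 3 (0.0531) or siCtrl#2 replicate 2 (0.0708) or 3 (0.0543). The siVps28#1 call was lost without any 1 of its own libraries or siCtrl#2 replicate 2 or 3, with adjusted p-values of 0.0666 to 0.163.

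PHGDH (chr1:120191034-120286841, plus strand) encodes phosphoglycerate dehydrogenase, the entry step of serine synthesis from glycolysis. It fell with the on-target siRNAs against both nontargeting siRNAs. Its levels were 249, 334 and 339 with siCtrl#1 and 311, 224 and 270.2 with siCtrl#2. Tsg101 depletion gave 123, 136 and 150 (siTsg101#1) and 170.1, 222 and 168 (siTsg101#2). Vps28 depletion gave 135, 149 and 185 (siVps28#1) and 98.5, 106 and 141 (siVps28#2). All 12 on-target libraries lay below all 6 nontargeting libraries, although the highest, siTsg101#2 replicate 2 at 222, came next to siCtrl#2 replicate 2 at 224.

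PHGDH differed, over the 4 on-target siRNAs as 1 average, by a log2 fold change of -1.07 ± 0.13 against siCtrl#1, or 2.10-fold lower (interval of the log2 fold change -1.35 to -0.80, adjusted p = 4.41e-06). Against siCtrl#2 it was -0.87 ± 0.14, or 1.83-fold lower (interval -1.16 to -0.59, adjusted p = 8.37e-05). Within batches 1, 2 and 3 it was -0.95, -1.18 and -1.09 against siCtrl#1 and -1.27, -0.60 and -0.76 against siCtrl#2. Both calls were kept whichever of the 18 libraries was left out. The nontargeting siRNAs differed by -0.20 ± 0.18 (interval -0.57 to 0.18, adjusted p = 0.675).

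By single siRNA, PHGDH was called down in 7 of 8 comparisons. Against siCtrl#1 the log2 fold changes were -1.17 (siTsg101#1), -0.72 (siTsg101#2), -0.98 (siVps28#1) and -1.42 (siVps28#2), with adjusted p-values from 1.62e-05 to 0.00652. Against siCtrl#2 they were -0.98, -0.52, -0.78 and -1.22 in the same order. The change with siTsg101#2 against siCtrl#2 was 1.44-fold, under the 1.5-fold limit, with an adjusted p of 0.0488, and it was called without siCtrl#2 replicate 2 (-0.64) or siTsg101#2 replicate 2 (-0.67). The difference with siVps28#1 against siCtrl#2 (adjusted p = 0.0117) was not called without siCtrl#2 replicate 1 (0.0539), siVps28#1 replicate 1 (0.0812) or siVps28#1 replicate 2 (0.0575).

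Among pairs of on-target siRNAs, PHGDH was called only between siVps28#2 and siTsg101#2, and the other pairs had adjusted p-values from 0.136 to 0.588. PHGDH was lower with siVps28#2, at 115 ± 22.8 (SD, n = 3), than with siTsg101#2, at 187 ± 30.6, by a log2 fold change of -0.70 ± 0.18 (adjusted p = 0.0174). It was the only tested member called between these siRNAs, where 7.27% of all genes were. The call was lost without siVps28#2 replicate 1 (adjusted p = 0.0868), siTsg101#2 replicate 2 (0.111) or siVps28#2 replicate 2 (0.0761). Both siTsg101 minus both siVps28 was 0.25 ± 0.13 (interval -0.016 to 0.52, adjusted p = 0.229), so that the depletions of Tsg101 and Vps28 were not shown to differ.

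**Figure D3:**
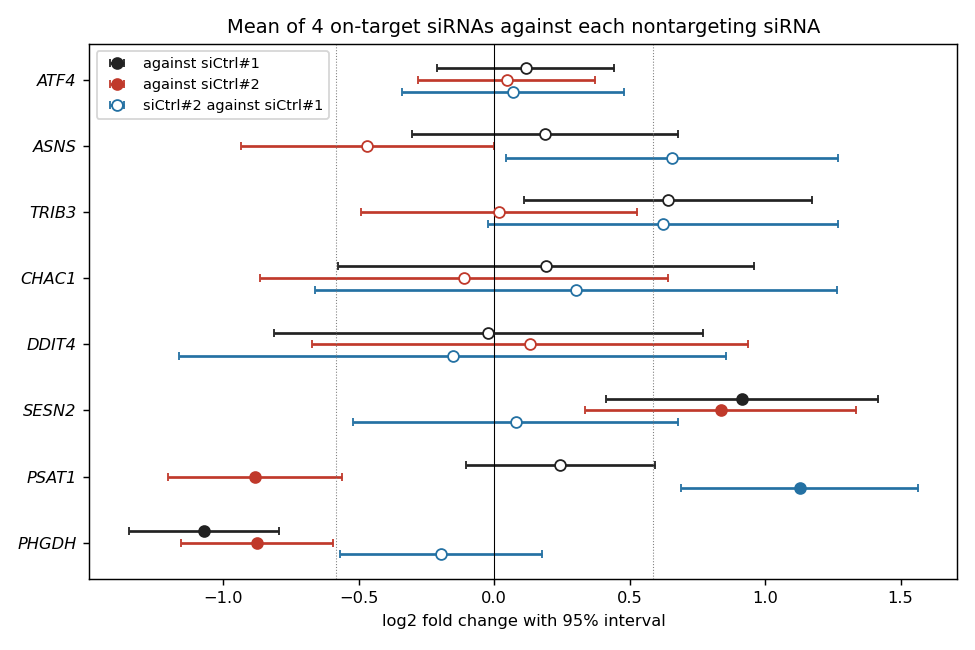
Log2 fold change (x axis, bars for 95% intervals) of the 8 tested genes (y axis) for the 4 on-target siRNAs averaged against siCtrl#1 (black) and siCtrl#2 (red) and for siCtrl#2 against siCtrl#1 (blue), with filled points for called changes and dotted lines at 1.5-fold. SESN2 and PHGDH were called against both controls, and PSAT1 against siCtrl#2 and between the controls.

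The single siRNAs called between 1 and 3 of the 8 tested genes each. Against siCtrl#1, siTsg101#1 and siTsg101#2 called PHGDH alone, where 21.8% and 17% of all genes were called in either direction. siVps28#1 called TRIB3, SESN2 and PHGDH, where 8.68% of all genes were called, and siVps28#2 called SESN2 and PHGDH, where 13.3% were. Against siCtrl#2, siTsg101#1 called PSAT1 and PHGDH with 16.1% of all genes called, and siTsg101#2 called PSAT1 with 14.4%. siVps28#1 and siVps28#2 each called SESN2, PSAT1 and PHGDH, where 4.41% and 9.25% of all genes were called.

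Between the depletions, both siTsg101 minus both siVps28 called 0 of the 8 genes by edgeR and 0 by DESeq2, with 1 at an unadjusted p under 0.05, ATF4, and 6.23% of all genes called. The differences ran from -0.43 for CHAC1 to 0.25 for PHGDH, and ATF4 was at -0.34 ± 0.14 (adjusted p = 0.117). siTsg101#2 minus siTsg101#1 called 0, with ASNS and PHGDH at an unadjusted p under 0.05, beside 6.99% of all genes, and siVps28#2 minus siVps28#1 called 0, with PHGDH under 0.05, beside 0.48%. In the last of these all 8 genes were lower with siVps28#2, with a median log2 difference of -0.32 beside -0.0034 over all genes. Their adjusted p-values ran from 0.487 for PHGDH to 0.945 for SESN2, and the share of all genes that were lower was not counted.

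In the order of group means, few neighbours were called different. For SESN2 the order was siVps28#1 (391), siVps28#2 (347), siTsg101#1 (299.8), siTsg101#2 (296), siCtrl#2 (186) and siCtrl#1 (175), and no neighbours were called. siTsg101#2 and siCtrl#2, next to each other in that order, were 0.68 apart (interval 0.079 to 1.27, adjusted p = 0.111), a difference called without siCtrl#1 replicate 1. For PSAT1, siCtrl#2 (242) stood above siTsg101#1 (143; adjusted p = 0.0131), and the other neighbours were not called. For PHGDH, siCtrl#1 (307.5) and siCtrl#2 (268) were followed by siTsg101#2 (187; adjusted p against siCtrl#2 = 0.0488, under 1.5-fold). No neighbours were called for ATF4, ASNS, TRIB3, CHAC1 or DDIT4.

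For the 4 genes called with a single siRNA, the tested genes with the most similar pattern were found by the root mean square difference of log2 levels, centred per gene, over the 18 libraries. BMF (0.289) and GTPBP2 (0.296) were nearest to TRIB3, and ENTPD7 (0.335) and SQSTM1 (0.341) to SESN2. SMIM15 (0.233) and WARS1 (0.248) were nearest to PSAT1, and BIRC5 (0.245) and IRF2BPL (0.247) to PHGDH. The standard deviation of the 4 genes themselves over the libraries was 0.588, 0.639, 0.453 and 0.554 on the same scale.

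The wider pathway was read from 8 lists of 109 further genes, of which 98 were tested. Against siCtrl#1, 15 of 98 were called up and 5 down, where 8.56% and 6.54% of all genes were, and their median log2 fold change was 0.072 beside -0.0035 over all genes. Against siCtrl#2, 9 were called up and 2 down, where 6.13% and 4.37% of all genes were, with medians of 0.020 and -0.0088. Leaving out 1 library gave 10 to 20 up and 4 to 8 down against siCtrl#1, and 5 to 10 up and 2 to 3 down against siCtrl#2. Without siCtrl#1 replicate 1 the counts against siCtrl#1 were 10 up and 8 down, and without siCtrl#2 replicate 2 or 3 the count up against siCtrl#2 was 5. Of the 89 listed genes with a promoter entry, 19 held the letters TGATGNAA in at least 1 entry. This count is per gene, whereas the shares of 3.62% and 1.91% above are per promoter entry, so they are not set against each other. The lists also include genes chosen as targets of ATF4, so an excess of the letters was not tested.

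In the translation factor and kinase list, 1 of 16 genes was called against either control, EIF2B2, a subunit of the exchange factor for eIF2 (up by 0.68 ± 0.14 and 0.66 ± 0.14). The kinases EIF2AK3 and EIF2AK4, which encode PERK and GCN2, were at 0.24 and -0.28 against siCtrl#1 and 0.47 and -0.32 against siCtrl#2, and were not called. Of 9 tested partners of ATF4, 2 were called up and 0 down against each control, and CEBPB was called against both. For these 2 lists, the shares of all genes called were 8.56% up and 6.54% down against siCtrl#1, and 6.13% and 4.37% against siCtrl#2. CEBPB, which encodes C/EBP-beta, rose by 3.05 ± 0.43 and 3.58 ± 0.47, from group means of 2.06 CPM in siCtrl#1 and 1.64 in siCtrl#2 to 50.1 after Tsg101 and 7.66 after Vps28 depletion. NFE2L2 was at 0.83 against siCtrl#1 and 0.51 against siCtrl#2, of which the first was called, and the second only without siCtrl#2 replicate 3 (0.71). ATF3 was at 0.53 and 0.77 in the same order, of which the second was called. That call was lost without siCtrl#2 replicate 2 (adjusted p = 0.120) or 3 (0.129), and the first was called without siCtrl#1 replicate 3 (0.98).

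Beside PSAT1 and PHGDH, 6 further genes of serine, glycine and one-carbon metabolism were tested. Of all genes, 6.54% were called down against siCtrl#1 and 4.37% against siCtrl#2. Against siCtrl#1, 2 were called down, SHMT1 (-0.88 ± 0.15, adjusted p = 1.45e-04), which makes glycine from serine, and MTHFD1 (-0.71 ± 0.11, adjusted p = 5.39e-05), a folate enzyme. Against siCtrl#2 they were at -0.15 and -0.30 and were not called, and PSPH, the last enzyme of serine synthesis, was called down (-0.70 ± 0.20, adjusted p = 0.0178). PSPH was at -0.40 against siCtrl#1, called without siCtrl#1 replicate 1 (-0.74), and its call against siCtrl#2 was lost without siCtrl#2 replicate 1 (adjusted p = 0.100) or 2 (0.0619). With all libraries none was called up, and the list's median was -0.33 against siCtrl#1 and -0.17 against siCtrl#2. For SHMT1, siCtrl#2 minus siCtrl#1 was -0.73 (adjusted p = 0.0530).

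Of 8 other amino acid enzymes, GOT1 (0.69) and CTH (0.74) were called up against siCtrl#1, at -0.078 and 0.40 against siCtrl#2, and ASS1 (0.63) was called up against siCtrl#2, at 0.25 against siCtrl#1. The shares of all genes called up were 8.56% against siCtrl#1 and 6.13% against siCtrl#2. Of 19 genes of tRNA charging, CARS1 (0.73) and GARS1 (0.66) were called up against siCtrl#1, and 0 were called against siCtrl#2, where both were at 0.11 and 0.028. None of these 4 calls against siCtrl#1 was kept without siCtrl#1 replicate 1, where GOT1 was at 0.46, CTH at 0.54, CARS1 at 0.50 and GARS1 at 0.47, with adjusted p-values from 0.0948 to 0.182. CTH was also not called without siCtrl#1 replicate 2, nor ASS1 without siCtrl#2 replicate 3 (0.56). Of 8 transporters 1 was called, SLC7A11, the cystine carrier of system xc-, at 1.81 ± 0.27 against siCtrl#1 and 0.88 ± 0.25 against siCtrl#2, the latter not called without siCtrl#2 replicate 2 (adjusted p = 0.0946) or 3 (0.0999). Its mean level was 61.0 in siCtrl#1, 115 in siCtrl#2, 166 with Tsg101 depleted and 277 with Vps28 depleted. Of the same list, SLC7A5 (-0.35 and -0.13) and SLC3A2 (0.21 and 0.18) were not called, and SLC7A5 was called down against siCtrl#1 without siCtrl#1 replicate 1 (-0.69).

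**Figure D4:**
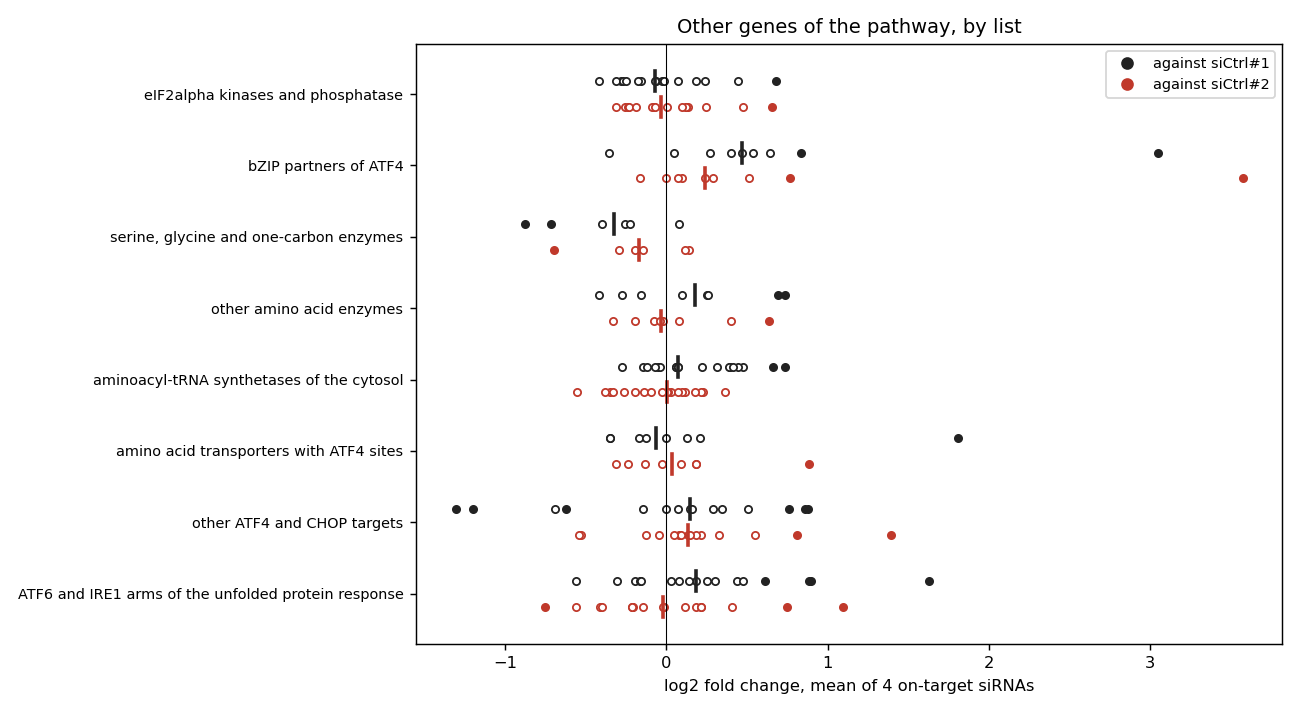
Log2 fold change averaged over the 4 on-target siRNAs (x axis) for the 98 tested genes of 8 lists (y axis), against siCtrl#1 (black) and siCtrl#2 (red), with filled points for called genes and vertical ticks for list medians. Most genes lie near 0, and CEBPB stands apart with 3.05 and 3.58.

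Among 15 tested further targets of ATF4 and CHOP, 3 were called up and 3 down against siCtrl#1, where 8.56% and 6.54% of all genes were. Against siCtrl#2, 2 were called up and 0 down, where 6.13% and 4.37% of all genes were. CHAC2, a relative of CHAC1 that also degrades glutathione, was called up against both (0.76 ± 0.20 and 1.40 ± 0.21), the first not without siCtrl#1 replicate 3 (0.64, adjusted p = 0.0607). Its mean level was 23.0 CPM with Tsg101 depleted and 7.76 with Vps28 depleted, beside 7.81 in siCtrl#1 and 5.06 in siCtrl#2. Singly, both siTsg101 siRNAs called CHAC2 up against each control, and neither siVps28 siRNA did. GDF15, a secreted stress marker named after its values were seen, was called down against siCtrl#1 (-1.20 ± 0.19) and up against siCtrl#2 (0.81 ± 0.23), and siCtrl#2 minus siCtrl#1 was -2.01 ± 0.27. Its call against siCtrl#2 was lost without siCtrl#2 replicate 2 (adjusted p = 0.0967) or 3 (0.149).

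In the ATF6 and IRE1 arms of the unfolded protein response, 4 of 17 genes were called up and 0 down against siCtrl#1, where 8.56% and 6.54% of all genes were, and 2 up and 1 down against siCtrl#2, where 6.13% and 4.37% were. The nontargeting siRNAs themselves differed in this list, with 3 of 17 called up for siCtrl#2 minus siCtrl#1 (DNAJC3, SEL1L and PDIA4), where 1.41% of all genes were. DNAJC3 and PDIA4 were among the 4 called against siCtrl#1, and the DNAJC3 call was lost without siCtrl#1 replicate 3 (0.49, adjusted p = 0.0839). With siTsg101#2 alone, 1 was called up and 6 down against siCtrl#2, the latter being HSPA5, DNAJB11, SEL1L, PDIA6, CRELD2 and MANF. Of all genes, 8.43% were called up and 5.98% down in that comparison. The other siRNAs against siCtrl#2 called 2 up and 1 down (siTsg101#1), 1 up and 1 down (siVps28#1) and 1 up and 0 down (siVps28#2). Shares of all genes called up and down were 8.94% and 7.13% (siTsg101#1), 2.71% and 1.69% (siVps28#1) and 5.10% and 4.15% (siVps28#2). Against siCtrl#1, siTsg101#2 called 3 up and 2 down, where 10.4% and 6.66% of all genes were. ERN1, which encodes IRE1 (0.90 and 0.75), and the chaperone DNAJB9 (0.89 and 1.10) were called up against both. DNAJB9 was called whichever library was left out, whereas the ERN1 call was lost without siCtrl#1 replicate 1 in the first comparison (adjusted p = 0.0898) and without 1 of 4 libraries in the second, siCtrl#2 replicate 2 (0.241) or 3 (0.0761), siTsg101#1 replicate 3 (0.0544) or siVps28#1 replicate 3 (0.0512).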

How the data were processed

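Total RNA of RKO cells was made into Ion AmpliSeq Transcriptome libraries, which were read with an Ion Proton sequencer. The authors aligned reads to the hg19 panel reference and deposited counts, whole numbers of reads per target from HTSeq 0.6.0 with no normalization. The submitters' notes also name DESeq2 1.18.1. No molecular identifiers were used.

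Groups and replicate numbers came from the labels. The 10 spike-in targets (1 read in all) and HTSeq's lines of reads assigned to no gene (48.2% to 49.1% of reads) were left out. Names were matched for 20224 of 20802 genes. Of 10632 genes with more than 100 counts over all libraries, 420 noncoding accessions were left out, which left 10212.

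Counts were TMM-normalized and fitted over all 18 libraries with 6 groups in edgeR 4.0.16 (R 4.3.3), with the quasi-likelihood test and Benjamini-Hochberg adjustment, after the procedure was tested on simulated data. The p-values measure the spread between 3 experiments. The labels give the replicate number as the batch, so same-numbered libraries are paired. The main fit left this pairing out, and only the replicate block used it. The deviations of same-numbered libraries from their group means correlated by 0.150 on average over 45 pairs (-0.168 to 0.413), and by -0.0752 over 90 other pairs. The second value is not independent of the first, because the deviations within each group cancel out. Alternatives were DESeq2 1.42.0, RLE size factors, no filter, at least 10 counts in every library, noncoding genes kept, the adjusted p alone, the replicate block, the mean of both controls as reference, only the groups compared, and each library left out, which was extended to the listed genes after their values were seen.

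The members, the 8 further lists and the naming rule were chosen with earlier results of these data known. All members were named. A listed gene was named if it was called in 1 direction against both controls, or else as 1 of the 2 with the largest change of its list against siCtrl#1. Any others named (NFE2L2, ATF3, PSPH, ASS1, GDF15, the kinases, SLC7A5, SLC3A2, further genes of the unfolded protein response, SESN1, NARS1 and KARS1) were chosen after their values were seen. Gene positions are from GENCODE on GRCh37, promoters from RefSeq on GRCh38.p14, and runs of at least 50 shared bases were sought with blastn 2.17.0. For ASNS, 2.8% of the transcript was shared, and for the other members 0.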

Additional observations from a re-analysis of the deposited data

Results flagged for a closer look

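PHGDH differed by a test between siVps28#2 and siTsg101#2, and was not called between the depletions. For both siTsg101 minus both siVps28, 3 of the listed genes named in the report differed, and 5 further listed genes given at the end. Of the 98 tested listed genes, 4 were called higher and 4 lower for both siTsg101 minus both siVps28. Of all tested genes, 4.16% were called higher and 2.07% lower in that comparison. For siTsg101#2 minus siTsg101#1, 3 listed genes were called higher and 7 lower, where 3.87% and 3.12% of all genes were, and these are not flagged here. PHGDH was lower with siVps28#2 than with siTsg101#2 by a log2 difference of -0.70 (adjusted p = 0.0174, edgeR quasi-likelihood test), and the 3 libraries of siVps28#2 all lay below the 3 of siTsg101#2. That call was lost without siVps28#2 replicate 1 or 2 or siTsg101#2 replicate 2. CEBPB was higher with both siTsg101 siRNAs than with both siVps28 siRNAs by 2.72 (adjusted p = 2.35e-07). CHAC2 was higher with both siTsg101 siRNAs by 1.54 (adjusted p = 2.92e-07), and its mean with siVps28 was 7.76 CPM beside 7.81 with siCtrl#1 and 5.06 with siCtrl#2. SLC7A11 was lower with both siTsg101 siRNAs by -0.76 (adjusted p = 0.0199), a call lost without siTsg101#1 replicate 1, siTsg101#2 replicate 3 or siVps28#2 replicate 2 (adjusted p = 0.0530 to 0.0552). The groups held 3 libraries each, which is too few for a check of single libraries against their group by gap and range. The other listed genes called for both siTsg101 minus both siVps28 were SESN1 (0.74, adjusted p = 0.0185) and PDIA4 (1.17, adjusted p = 6.84e-05), which were higher, and NARS1 (-0.87, adjusted p = 7.66e-06), KARS1 (-0.61, adjusted p = 0.00229) and SEL1L (-0.71, adjusted p = 9.30e-05), which were lower with siTsg101. The SESN1 call was lost without siTsg101#2 replicate 1 or siVps28#2 replicate 2, and KARS1 was under 1.5-fold in 4 of the 18 fits that each left out 1 library.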

How the results depend on the processing

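The number of the 8 tested genes called up against siCtrl#1 with the average of the on-target siRNAs was 1, and became 2 with no filter on low counts and 2 with the replicate block, TRIB3 being added in both, while leaving out 1 library gave 0 to 2. Against siCtrl#2 the number called up was 1, and leaving out 1 library gave 0 to 1. The number called down, and that between the depletions, moved under none of the alternatives run. Over the fold changes of the 8 genes in 3 comparisons, 625 values under an alternative kept direction and side of the threshold or were not called, 4 became called and 3 were no longer called, and no called value turned its direction. The replicate block, for libraries paired by batch, changed no call in these 3 comparisons but that of TRIB3 (0.70). TRIB3 without the filter was at 0.64 (adjusted p = 2.19e-04), beside 0.64 (adjusted p = 0.0743) in the main fit. The share of all genes called without the filter was not counted. The cause of these changes was not tested. PHGDH ranged from -1.21 to -0.97 against siCtrl#1 and from -0.99 to -0.76 against siCtrl#2 over the alternatives, and SESN2 from 0.52 to 1.31 and from 0.74 to 0.94. Depth limited DDIT3, with 56 counts in all.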
